A study of Mus musculus with 3 samples.

Results

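The heat shock proteins and their DNAJ co-chaperones were examined in 3 samples of endothelial cells from the cortex of the adult mouse kidney. Members were taken by gene symbol: the Hsp90, Hspa, Hspb, Hspd1, Hspe1 and Hsph1 genes, the Dnaja, Dnajb and Dnajc genes, and Hsf1, Hsf2 and Bag3. Of 75 RefSeq protein-coding symbols that meet this rule, 72 had a probeset of their own on the array, out of 19938 genes measured in all. The 3 without one were Hsf1, Hsp90ab1 and Hspa1b, so that the main heat shock transcription factor and the constitutive cytosolic HSP90 are not analysed here. The 72 members were 25 genes with Hsp symbols, 45 DNAJ genes, and Bag3 and Hsf2.

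The samples form 1 group, called replicates 1, 2 and 3. Each held the cells of 1 adult kidney of the Tie2-GFP strain, carrying the transgene Tg(TIE2GFP)287Sato on a mixed, mainly CD-1 background, with the sex given as unknown and without pooling or treatment. GFP in these mice is driven by the promoter of Tie2 (Tek), an angiopoietin receptor of endothelial cells, so that the sort takes any cell in which this promoter was active or GFP was retained. The cortex was freed of medulla, digested with 1% collagenase for 5 min, passed through meshes of 100 and 40 µm, the second of which held back glomeruli, given trypsin for 5 min, filtered again at 70 µm, and GFP-positive cells were sorted. The labels do not say whether the kidneys came from separate animals, and p-values measure the spread between these 3 samples. There was no other group, so no change with a condition could be tested.

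All 15 endothelial markers on a fixed list, among them Pecam1, Cdh5, Kdr and Flt1, had a signal above 100 by the test described below. Markers of other cells were also present. Of 10 proximal tubule markers, 9 were above 100, as were 2 of 5 markers of the thick ascending limb, 2 of 6 of the distal tubule and collecting duct, and Rgs5, 1 of 8 smooth muscle and pericyte markers. The remaining lists gave Podxl, which endothelial cells also express, as 1 of 4 podocyte markers measured, 0 of 6 leukocyte markers (5 below 100 and Cd74 neither) and 0 of 1 red cell marker measured. By limma, 0 leukocyte and 0 red cell markers were above 100 at an unadjusted p under 0.05 as well. In a mixed RNA sample, fewer cells of a type and less RNA per cell cannot be told apart. Over the probesets, which are not independent of each other, Pearson's r was between 0.941 and 0.950 for the 3 pairs of samples.

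Heat shock proteins are chaperones that bind unfolded or partly folded proteins. HSP70 proteins work in a cycle of ATP hydrolysis: a DNAJ protein, named for the J domain it shares with bacterial DnaJ, delivers a client and triggers hydrolysis, and a nucleotide exchange factor such as an HSP110 or a BAG protein releases it. HSP90 proteins act later on more folded clients, small heat shock proteins hold unfolded proteins in solution, and HSP60 with HSP10 forms the folding chamber of mitochondria. On heat or other protein damage the factor HSF1 binds heat shock elements, inverted repeats of GAA, before the start of many of these genes, whereas the chaperones of the endoplasmic reticulum (ER) are raised in the unfolded protein response through the ER stress element. Dissociation of tissue into single cells is itself known to induce such genes.

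The stretches below are promoters of some of the members described in the results that hold these motifs. They were read from RefSeq windows of 300 bases, 250 before to 50 after each start, of the build GRCm38.p6, and are printed 5′ to 3′ on the strand of the gene. In the first group, capitals mark matches to the pair GAANNTTC or TTCNNGAA, each of which is its own reverse complement. A triple is a pair followed after 2 further bases by another unit in the orientation of the first, was searched on both strands and is also counted as pairs.
Hsph1, chr5:149636337-149636394, minus strand, 79 to 22 bases before the start: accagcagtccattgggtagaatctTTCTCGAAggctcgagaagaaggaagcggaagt
Hspb1, chr5:135887777-135887854, plus strand, 142 to 65 bases before the start: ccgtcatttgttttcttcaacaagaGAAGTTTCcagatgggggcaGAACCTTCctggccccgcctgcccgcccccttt
Hspa1a, chr17:34972228-34972285, minus strand, 129 to 72 bases before the start: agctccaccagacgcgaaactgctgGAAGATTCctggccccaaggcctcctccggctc
Dnaja1, chr4:40722319-40722376, plus strand, 149 to 92 bases before the start: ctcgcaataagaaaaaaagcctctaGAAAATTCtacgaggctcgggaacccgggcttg
Hspe1, chr1:55088034-55088101, plus strand, 114 to 47 bases before the start: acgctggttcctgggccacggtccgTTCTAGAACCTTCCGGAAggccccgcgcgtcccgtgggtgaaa

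The Hspa1a stretch is identical to that of its neighbour Hspa1b (chr17:34959310-34959367, minus strand). Hspe1 and Hspd1 lie head to head, and the run of 3 overlapping pairs printed for Hspe1 is also in a window of Hspd1. The window of Hsph1 holds 2 more pairs after the start, which are not shown. In the second group, capitals mark the ER stress element, CCAAT and CCACG with any 9 bases between them, searched on both strands.
Hspa5, chr2:34772000-34772068, plus strand, 90 to 22 bases before the start: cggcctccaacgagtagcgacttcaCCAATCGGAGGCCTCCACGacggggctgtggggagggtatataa
Hsp90b1, chr10:86705508-86705681, minus strand, 237 to 64 bases before the start: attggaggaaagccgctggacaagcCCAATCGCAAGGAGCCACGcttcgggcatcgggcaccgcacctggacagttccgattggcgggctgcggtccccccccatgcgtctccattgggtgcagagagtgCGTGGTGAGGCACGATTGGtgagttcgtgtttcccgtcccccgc
Dnajc3, chr14:118937802-118937870, plus strand, 130 to 62 bases before the start: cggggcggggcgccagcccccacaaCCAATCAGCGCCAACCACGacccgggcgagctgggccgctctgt

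Of the 72 members, 59 had a window and 16 of these (27.1%) held a pair, beside 17.0% of the 27025 genes with windows. Among them were 8 of 20 Hsp genes (Hspa1a, Hspb1, Hspb3, Hspb6, Hspb8, Hspd1, Hspe1 and Hsph1), 7 of 37 DNAJ genes (Dnaja1, Dnaja4, Dnajb4, Dnajb6, Dnajc10, Dnajc27 and Dnajc5g) and Bag3. The triple was in 4 of 59 members, Hspd1, Hspe1, Hsph1 and Dnajb6, beside 0.662% of all genes. The ER stress element was in the 3 genes printed above, beside 0.137% of all genes, and stood there 2 times in Hsp90b1. A match describes the letters of the window and shows no binding. The 13 members not in the table were Hsp90aa1, Hspa8, Hspa9, Hspa13, Hspb2, Dnajc2, Dnajc5, Dnajc5b, Dnajc11, Dnajc12, Dnajc18, Dnajc22 and Dnajc30.

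The values are log2 signals, and a signal of 100, the raw level used as a filter in the study's methods, lies at 6.64. For each probeset a mean above and a mean below this limit were tested with limma, one-sided, with Benjamini-Hochberg adjustment over all 35557 probesets. An adjusted p under 0.05 is called above or below, and anything else neither. Where a gene had several probesets, the probeset with the highest mean stands for it. Signals of different probes depend on the probes, so levels of different genes are not ranked. In 40.5% of probesets all 3 samples held the same value to 5 decimals. Among genes this held for 51.2%, beside 21 of the 72 members, and among genes with a mean of 100 or more for 27.5%, beside 7 of 44. Such a gene has an SD of 0, its p is very small by construction, and it is described here as having 3 equal values.

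Of the 72 members, 27 (37.5%) were above 100 and 20 (27.8%) below, and 25 were neither. Of all genes, 22.9% were above and 65% below. The median log2 signal was 7.22 over the members and 5.88 over all genes. Leaving out replicate 2 left 14 of the 72 members above, with 2 samples left in the fit, beside 17.1% of all genes. Leaving out replicate 1 or 3 left 19 or 25 members, beside 16.7% or 16.8% of all genes. Of the Hsp genes 10 of 25 were above and 5 below, and of the DNAJ genes 16 of 45 were above and 14 below. Without replicate 2 these DNAJ counts were 6 and 13. By place in the cell, all 6 chaperones of the ER lumen were above 100 and so were 4 of 8 mitochondrial members, with 0 below, whereas 7 of 9 members known mainly from testis were below and 0 above (0 also at an unadjusted p under 0.05). Without replicate 1, 2 or 3, the ER lumen count was 4, 3 or 5 of 6.

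**Figure D1:**
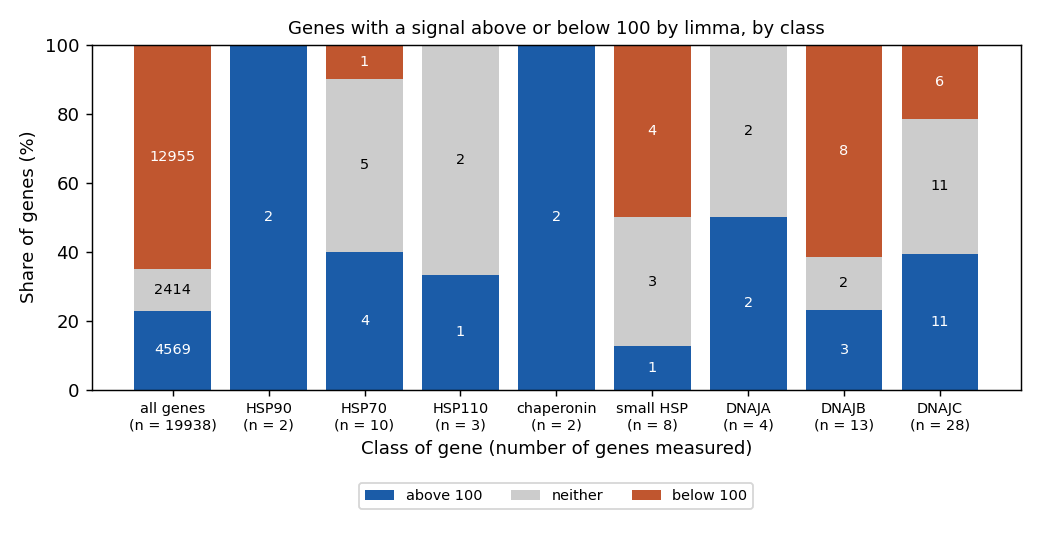
Share of genes (%) called above 100, below 100 or neither by limma, for all 19938 genes and for each class of heat shock protein and DNAJ gene, with the number of genes written in each segment. Both HSP90 genes measured and both chaperonin genes were above 100, beside 22.9% of all genes. Below 100 were 8 of 13 DNAJB genes and 4 of 8 small heat shock protein genes, not more than the 65% of all genes.

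The HSP90 genes measured were both above 100 and were lowest in replicate 3. Hsp90aa1, the stress-inducible cytosolic HSP90, read 11.63, 11.54 and 10.82 on the log2 scale in replicates 1, 2 and 3 (11.33 ± 0.45, SD, n = 3; limma, adjusted p = 0.00481). Its 2 other probesets were also above 100 and lowest in replicate 3. Hsp90b1 (GRP94), the HSP90 of the ER, had 12.10, 12.38 and 11.84 (12.10 ± 0.27, SD, n = 3; limma, adjusted p = 0.00136). Without replicate 1 or without replicate 2 the adjusted p of Hsp90aa1 by limma was 0.0749 or 0.0815 and the call was lost.

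Of the 10 HSP70 genes, 4 were above 100: the constitutive cytosolic Hspa8 (HSC70), the ER chaperone Hspa5 (BiP), the mitochondrial Hspa9 (mortalin) and the microsomal Hspa13. Hspa8 had 12.51, 12.44 and 11.92 (12.29 ± 0.32, SD, n = 3; limma, adjusted p = 0.00173). Its probesets did not move alike. A further probeset gave 11.94, 11.84 and 11.41, lowest in replicate 3, and its last own probeset 10.37, 10.88 and 10.84, lowest in replicate 1. Probesets that Hspa8 shares with Snord14c and Snord14d gave 7.62, 8.13 and 8.45 and 7.71, 8.13 and 8.45, highest in replicate 3. Hspa5 had 10.63, 10.62 and 9.88 (10.38 ± 0.43, SD, n = 3; limma, adjusted p = 0.00687), with replicate 3 below the others. Its adjusted p was 0.0946 without replicate 1 and 0.0945 without replicate 2 (limma). Hspa9 and Hspa13 had 3 equal values, 10.12 and 7.40.

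The heat-inducible HSP70 gene Hspa1a was neither above nor below, at 7.64, 7.58 and 7.11 (7.44 ± 0.29, SD, n = 3; limma, adjusted p = 0.0646), although every sample exceeded 6.64. With the columns quantile normalized or shifted to 1 median it was called above. A probeset that Hspa1a shares with its near-identical copy Hspa1b read 7.98, 7.98 and 7.68 and was above 100 (limma, adjusted p = 0.0103). On both probesets replicate 3 was the lowest. The split of signal between these copies is uncertain. Hspa14, a cytosolic HSP70 that works at the ribosome, was at 7.44, 7.19 and 6.83 and was neither (limma, adjusted p = 0.163).

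The other HSP70 genes lay near or under the limit. Hspa12b, a distant HSP70 known from endothelial cells, was at 6.65, 6.72 and 6.41 and was neither. Its relative Hspa12a was below 100 with 3 equal values of 5.15. Hspa2, known mainly from testis, was at 6.56, 6.30 and 6.30, under the limit in each sample, but missed the call (limma, adjusted p = 0.0576 for a mean below 100). Hspa1l, also known from testis, was at 5.15, 5.05 and 7.05: replicate 3 was over the limit and the others were under it, and the gene was neither.

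The HSP110 proteins release ADP from HSP70, and their 3 genes did not vary alike between samples. Hspa4 had 3 equal values of 9.20 and was above 100. Hsph1 (HSP105) was at 8.80, 8.98 and 7.23 (8.34 ± 0.96, SD, n = 3; limma, adjusted p = 0.147) and was neither, and the difference between replicate 3 and the mean of the others was -1.66. Hspa4l was at 7.55, 7.87 and 6.86 and was neither (limma, adjusted p = 0.193), again with replicate 3 lowest. The chaperonin genes of mitochondria, Hspd1 and Hspe1, were both above 100, and at their brightest probesets replicate 3 was not the lowest sample by itself. Hspd1 (HSP60) had 3 equal values of 11.03 and, on a further probeset, 9.36, 9.11 and 9.18. Hspe1 (HSP10) had 11.75, 11.94 and 11.75 (11.81 ± 0.11, SD, n = 3; limma, adjusted p = 0.000255), and its further probeset 11.55, 11.73 and 11.52. Near-identical copies of Hspa8, Hsp90aa1, Hspd1 and Hspe1 exist in the genome as processed pseudogenes, so the source of the signal on a given probeset is uncertain. For Dnaja1 and Hspb1, which also had several probesets, the place of each probeset in the genome was not examined.

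Of the 8 Hspb genes, Hspb1 (HSP25, the mouse HSP27, which binds actin) was the 1 called above 100. It was at 9.57, 9.32 and 8.52 (9.14 ± 0.55, SD, n = 3; limma, adjusted p = 0.0243), with replicate 3 lowest, and its further probeset was at 9.48, 9.27 and 8.52. The call did not hold with any 1 sample left out: the adjusted p by limma was 0.163, 0.200 and 0.0718 without replicate 1, 2 and 3. The muscle proteins Hspb3 and Hspb7 and the testis gene Hspb9 were below 100 with 3 equal values of 5.73, 5.74 and 5.24. Hspb6, also of muscle, was below at 6.47, 6.47 and 6.53, a call lost without replicate 1 or 2 (limma, adjusted p = 0.0701 and 0.0702) and with a spread given to equal values (0.0765). Hspb2, of muscle, was neither at 7.18, 6.37 and 6.37, and Hspb8, the partner of Bag3 in selective autophagy, was neither at 6.05, 6.50 and 6.05. Hspb11 was neither, at 6.68, 6.68 and 6.99. It is now known as the intraflagellar transport protein IFT25 and is a member by symbol only.

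**Figure D2:**
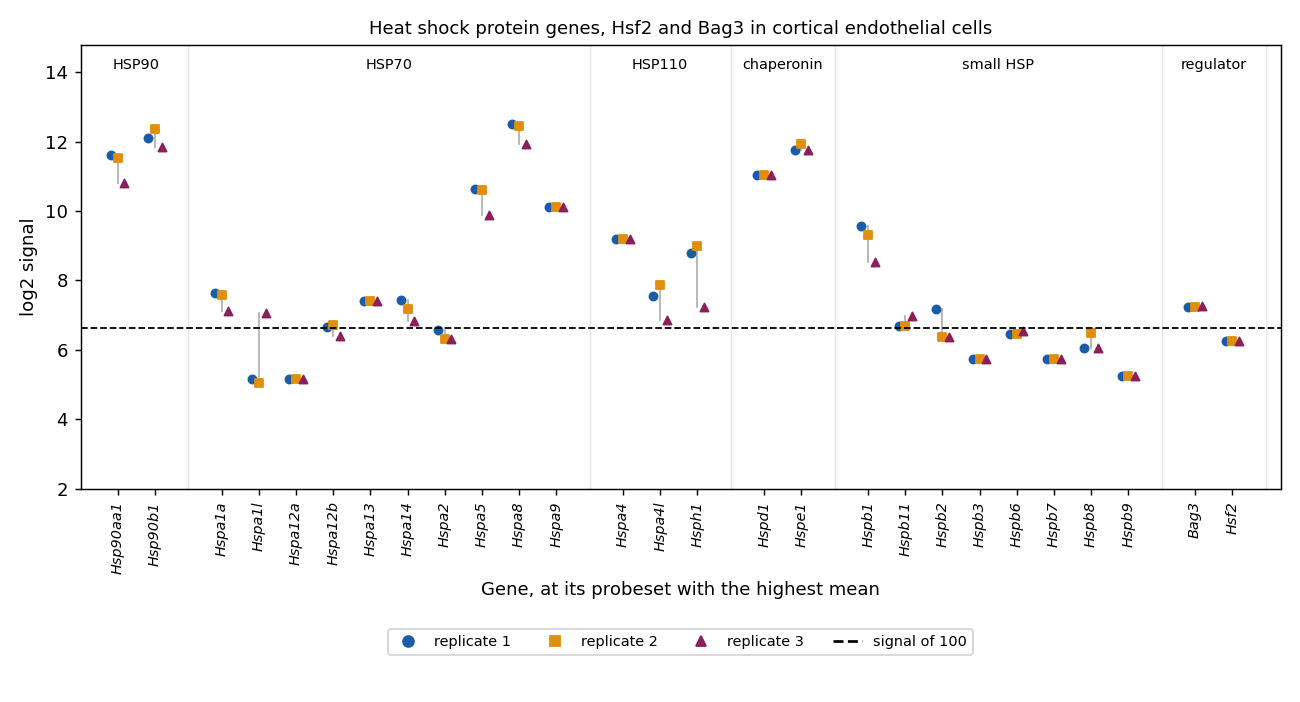
Log2 signal of each Hsp gene and of Bag3 and Hsf2 in replicates 1, 2 and 3, at the probeset with the highest mean, with the range as a grey line and a signal of 100 as a dashed line. Replicate 3 is the lowest point of Hsph1, Hspb1, Hsp90aa1, Hspa5 and Hspa8, whereas Hspa9, Hspa4 and Hspd1 show 3 equal values.

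Bag3, an exchange factor of HSP70 and a target of HSF1, was above 100, at 7.23, 7.23 and 7.27 (7.24 ± 0.02, SD, n = 3; limma, adjusted p = 0.000932). Its values in replicates 1 and 2 were equal to 5 decimals, so the small SD is not a measure of agreement alone. Hsf2, a heat shock factor with roles in development, was below 100 with 3 equal values of 6.27.

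The DNAJA genes code for the general J-domain partners of HSP70. Dnaja1, of the cytosol, was at 11.94, 11.96 and 11.22 (11.70 ± 0.42, SD, n = 3; limma, adjusted p = 0.00375). Its further own probeset was above 100 at 9.21, 9.21 and 8.98. A probeset shared with Mir207 was above at 9.46, 9.52 and 9.29. On these, replicate 3 differed from the mean of the others by -0.23 and -0.20, beside -0.73 at the brightest probeset. Dnaja2, also cytosolic, was at 8.83, 8.83 and 8.69 (limma, adjusted p = 0.000809). In both, replicate 3 was the lowest, and Dnaja1 missed the threshold without replicate 1 (limma, adjusted p = 0.0702) or 2 (0.0671). The mitochondrial Dnaja3 was at 7.73, 7.77 and 7.05 and was neither (limma, adjusted p = 0.102). Dnaja4 was neither, at 6.52, 6.58 and 6.68.

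Of the 13 DNAJB genes 8 (61.5%) were below 100, a share near the 65% of all genes. Dnajb1, the classical heat-inducible HSP40 of the cytosol, was among them with 3 equal values of 5.49. The others below were Dnajb2, Dnajb5 and Dnajb12, and the testis genes Dnajb3, Dnajb7, Dnajb8 and Dnajb13, with means from 2.91 for Dnajb7 to 6.63 for Dnajb5, the last just under the limit. The call of Dnajb5 rests on its 3 equal values: by limma its adjusted p was 0.487 with quantile normalization, 0.46 with the median shift and 0.656 with a spread given to equal values. The 3 above were Dnajb4 of the cytosol, at 7.25, 7.25 and 7.37, and the ER proteins Dnajb9 (ERdj4), at 8.31, 7.72 and 7.72, and Dnajb11 (ERdj3), at 9.50, 9.50 and 9.20. Their adjusted p-values by limma were 0.00623, 0.0348 and 0.0022. With 1 sample left out these calls did not all hold: Dnajb4 was lost without replicate 1 or 2 (limma, adjusted p = 0.0852 and 0.0837), Dnajb11 likewise (0.0524 and 0.0516), and Dnajb9 without replicate 2 or 3 (0.195 and 0.265). Among those below, Dnajb12 was lost without replicate 2 or 3 (limma, adjusted p = 0.0657 and 0.095) and with a spread given to equal values (0.065). Dnajb14, of the ER membrane, was neither, at 6.96, 6.96 and 7.37, while 2 probesets it shares with Pin4 were above 100, with means of 11.24 and 11.21. Dnajb6, which keeps polyglutamine proteins in solution, had the widest range among all members, at 8.31, 6.25 and 7.05 on its own probeset, and was neither. On 4 probesets it shares with Gm4247 the means ran from 9.21 to 9.58 and all 4 were above 100, so the reading for Dnajb6 depends on the probeset.

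Of the 28 DNAJC genes 11 were above 100 and 6 below, and 5 were above without replicate 2. The ER members were Dnajc3 (p58IPK), at 10.38, 10.50 and 10.11, and Dnajc10 (ERdj5), a disulfide reductase, at 8.75, 8.80 and 8.80. Dnajc19, of the import motor of mitochondria, was at 7.57, 7.57 and 7.84. These 3 were called with limma at adjusted p = 0.00156, 0.000113 and 0.0126, and Dnajc19 was lost without replicate 1 or 2 (0.12 and 0.119).

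Several of the other DNAJC genes above 100 serve particular machines rather than general folding. Dnajc7, which also binds HSP90, was at 9.80, 9.21 and 9.40. Dnajc8, associated with the spliceosome, was at 9.66, 10.15 and 10.21. Dnajc9, a nuclear protein that binds histones, was at 8.17, 7.81 and 7.84. In these 3 genes the odd sample was replicate 1, which was high for Dnajc7 and Dnajc9 and low for Dnajc8. Their adjusted p-values by limma were 0.00581, 0.00435 and 0.0126 for Dnajc7, Dnajc8 and Dnajc9, and from 0.0611 to 0.181 without replicate 2 or 3, where all 3 calls were lost. Dnajc13 (RME-8), of endosomes, was at 10.46, 10.34 and 9.98, but of its 15 probesets 11 were above and 4 neither, and replicate 3 was the highest on some and the lowest on others. Without replicate 2 its call was lost (limma, adjusted p = 0.0614). Dnajc14, of the ER membrane, was at 7.78, 8.35 and 8.74 and its call (limma, adjusted p = 0.043) was lost with any 1 sample left out (0.0963 to 0.275). Dnajc2, of the ribosome, Dnajc5, the cysteine string protein of vesicles, and Dnajc22 had 3 equal values of 7.55, 7.05 and 6.85. With a spread given to equal values, Dnajc5 and Dnajc22 were no longer called (limma, adjusted p = 0.0681 and 0.319).

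The 11 DNAJC genes that were neither were mostly those with a wide range between samples. Dnajc21, of ribosome assembly, was at 8.74, 8.77 and 7.64 (limma, adjusted p = 0.0656). Dnajc1 (ERdj1), of the ER membrane, was at 7.96, 8.23 and 7.09 (limma, adjusted p = 0.13). Both were lowest in replicate 3, which differed from the mean of the others by -1.11 in Dnajc21. Dnajc15 and Dnajc24, of mitochondrial import and of diphthamide synthesis, were instead highest in replicate 1, at 7.91, 7.03 and 7.21 and at 8.02, 7.11 and 7.49. Dnajc17 was highest in replicate 2, at 7.00, 7.80 and 7.19. The mitochondrial Dnajc30 was at 7.33, 6.90 and 7.72 and the mitochondrial Dnajc11 at 6.57, 6.57 and 6.00. Dnajc18 and Dnajc27 spanned the limit, at 7.18, 6.25 and 6.80 and at 6.37, 6.37 and 6.89. Dnajc4 and Dnajc12 exceeded the limit in each sample and missed the call. The 6 below were Dnajc5b and Dnajc5g, relatives of Dnajc5 known from testis, Dnajc6 (auxilin of neurons), Dnajc16, Dnajc25 and Dnajc28. Dnajc25, with 3 equal values of 6.61, was no longer called with quantile normalization, the median shift or a spread given to equal values (limma, adjusted p = 0.172, 0.135 and 0.537).

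**Figure D3:**
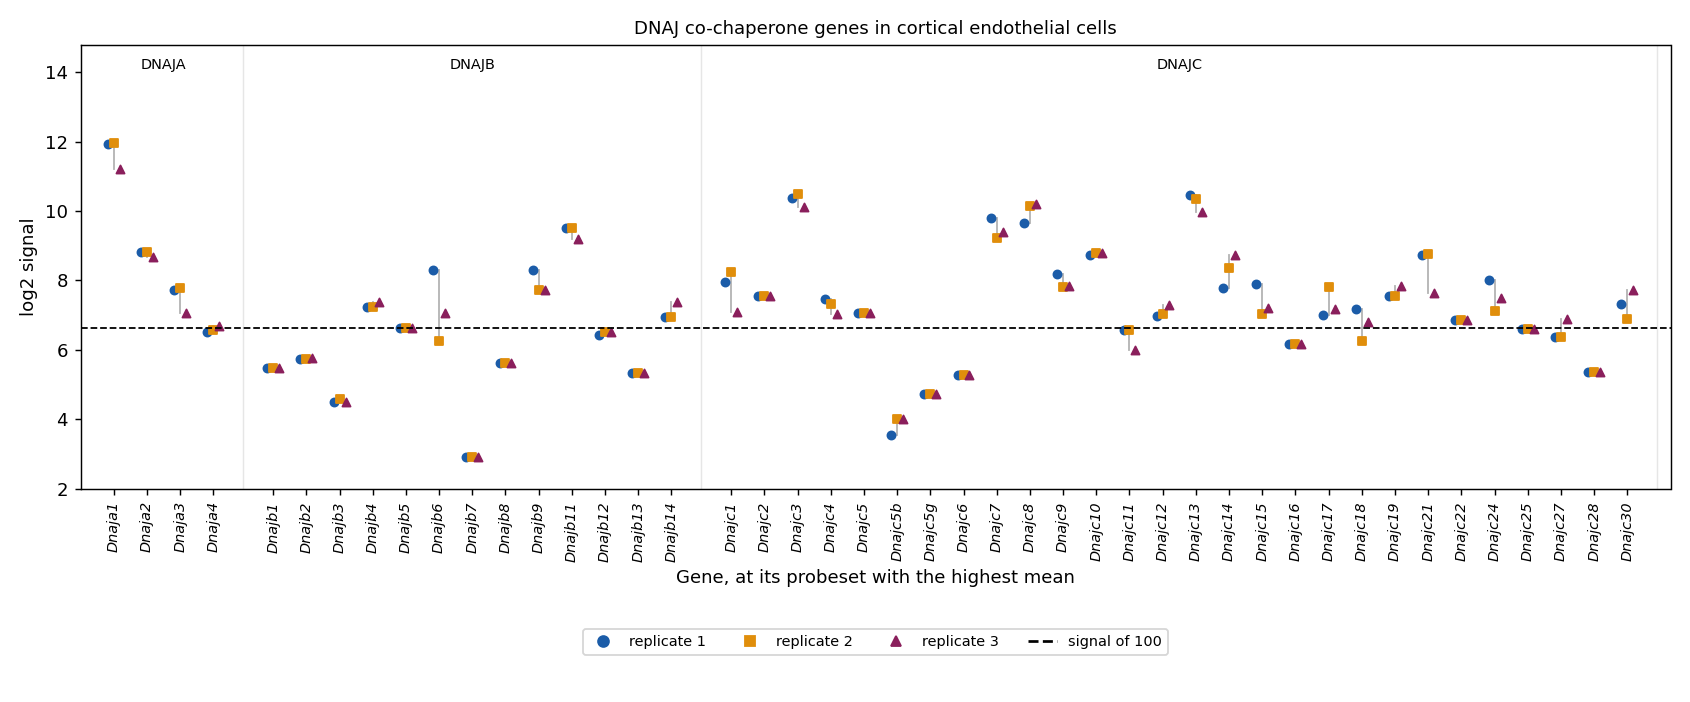
Log2 signal of each DNAJ gene in replicates 1, 2 and 3, at the probeset with the highest mean, with the range as a grey line and a signal of 100 as a dashed line. Dnaja1, Dnajc1 and Dnajc21 are lowest in replicate 3, Dnajc14 is lowest in replicate 1, and Dnajb6 spans from 6.25 to 8.31.

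The spread of the members was counted as the highest minus the lowest log2 signal. The 3 samples spanned 0.5 or more on the log2 scale in 27 of 72 members (37.5%) and in 12.8% of all genes. Over genes with a mean of 100 or more, where spread is wider, the counts were 23 of 44 members (52.3%) and 26.7% of 6127 genes. A range of 1 or more was seen in 6 of these 44, Dnajb6, Dnajc1, Dnajc21, Hspa4l, Hsph1 and Hspb1, beside 9.6% of the genes. No test was made of these shares, since the samples form 1 group.

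The sample with the lowest signal was counted next. Of the 44 members with a mean of 100 or more, 18 (40.9%) were lowest in replicate 3 alone, 5 in replicate 1 and 7 in replicate 2. Of all 6127 genes at that level, 1525 (24.9%) were lowest in replicate 3, 771 in replicate 1 and 1169 in replicate 2. Replicate 3 was thus the commonest lowest sample there as well. Genes with 3 equal values have no lowest sample and were 27.5% of these genes, beside 7 of the 44 members. Of the 15 Hsp genes 9 were lowest in replicate 3, 0 in replicate 1 and 0 in replicate 2. These 9 were Hsph1, Hspb1, Hspa4l, Hsp90aa1, Hspa5, Hspa8, Hspa1a, Hspa14 and Hsp90b1. Hspa8 was lowest there on 2 of its 3 own probesets and highest there on those it shares with Snord14c and Snord14d. Of the 28 DNAJ genes 9 (32.1%) were lowest in replicate 3, 5 in replicate 1 and 7 in replicate 2. For the 20 DNAJC genes alone the share lowest in replicate 3 was 25%, near the 24.9% of all genes. The difference between replicate 3 and the mean of the others had a median of -0.48 over the 15 Hsp genes, -0.12 over 28 DNAJ genes and 0 over all genes with a mean of 100 or more. In 11 members replicate 3 was lowest and 0.5 or more under the mean of the others: 7 Hsp genes and the DNAJ genes Dnaja1, Dnaja3, Dnajc1 and Dnajc21, beside 9.42% of genes. This was counted at the brightest probeset. Further own probesets differed by -0.23 in Dnaja1 and by -0.48 and 0.22 in Hspa8. A probeset shared by Hspa1a and Hspa1b differed by -0.30. Those of Hsp90aa1 and Hspb1 stayed 0.5 or more under. In 9 of the 44 members (20.5%) replicate 3 was instead the highest, beside 20.3% of genes.

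By place in the cell, the genes lowest in replicate 3 included cytosolic genes (Hsph1, Hspb1, Hsp90aa1, Dnaja1), ER genes (Hspa5, Hsp90b1, Dnajc3, Dnajb11, Dnajc1) and the mitochondrial Dnaja3. At a mean of 100 or more, 9 of 12 cytosolic, 4 of 6 ER lumen and 1 of 7 mitochondrial members were lowest there, beside 24.9% of genes. Genes with 3 equal values, such as Hspd1 and Hspa9, could not be lowest in any sample. Of members with a mean of 100 or more and a promoter window, 4 of 10 with a heat shock element pair and 12 of 24 without were lowest in replicate 3, with median differences of -0.16 and -0.28. Lowest by 0.5 or more were 4 of 10 with a pair and 5 of 24 without, so the count depends on the size asked for, and 1 gene of either set had 3 equal values. The 5 pair stretches printed above are a choice among these 10 genes and do not stand for all of them. Those of Hsph1, Hspb1, Dnaja1 and Hspa1a belong to genes lowest in replicate 3, with differences of -1.66, -0.93, -0.73 and -0.50. On its further own probeset Dnaja1 differed by -0.23. For Hspe1 the difference was -0.09. The genes not printed, Bag3, Dnajb4, Dnajb6, Dnajc10 and Hspd1, were not lowest there, with differences of 0.04, 0.12, -0.23, 0.03 and 0. All 3 genes with an ER stress element were lowest there, with a median difference of -0.40. A link between motifs and replicate 3 was not tested.

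Markers of other cells also differed in replicate 3. All 8 smooth muscle and pericyte markers were highest there, and their summed signal was 1671, 1678 and 3552 in replicates 1, 2 and 3. Acta2 was at 8.43, 7.97 and 9.50 and Rgs5 at 9.65, 9.70 and 10.64. The summed signal of the 15 endothelial markers was 13652, 13969 and 11507, with 8 of 15 lowest in replicate 3 and a median difference of -0.07. The summed signal of 10 proximal tubule markers was 15039, 13445 and 13922, and that of 6 leukocyte markers 815, 692 and 265, the last through Cd74 at 9.35, 9.04 and 6.69, with Ptprc, Cd68, Adgre1, Cd3e and Cd79a below 100. For 6 distal tubule and collecting duct markers it was 1199, 1051 and 1558, with 3 highest and 0 lowest in replicate 3, and for 5 markers of the thick ascending limb 3330, 1923 and 3122. Whether the makeup of replicate 3 has a part in the lower chaperone signals was not tested.

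**Figure D4:**
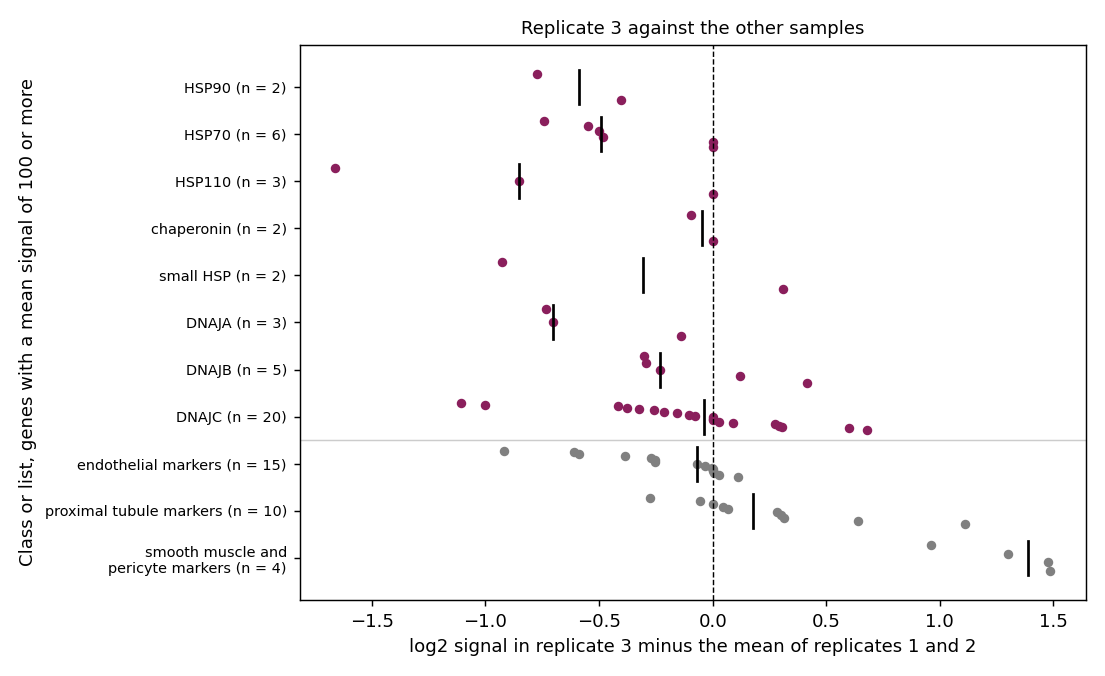
Log2 signal in replicate 3 minus the mean of replicates 1 and 2, for genes whose mean signal reached 100, by class of chaperone and for 3 lists of cell markers, with 1 point per gene and the median as a black bar. Most HSP90, HSP70, HSP110 and DNAJA genes lie left of 0, DNAJC genes lie on both sides, and the 4 smooth muscle and pericyte markers shown lie right of 0.

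The early response genes, which tissue dissociation is known to induce, were above or below 100 in shares near those of all genes. Of 15 on the list, 4 (26.7%) were above 100 (Jun, Jund, Dusp1 and Zfp36) and 9 (60%) below, beside 22.9% and 65% of all genes. Fos and Fosb had 3 equal values of 5.89 and 5.96, Jun was at 8.67, 8.67 and 8.65, and Junb at 6.17, 5.91 and 6.17. Of the 5 with a mean of 100 or more, 3 were lowest in replicate 3, Dusp1 at 9.01, 8.61 and 8.32, Btg2 at 7.69, 7.70 and 7.15 and Jun. Jund and Zfp36 had 3 equal values, and Myc was highest in replicate 3, at 5.21, 5.21 and 6.49. The summed signal of the list was 1968, 1844 and 1743.

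The other genes of the folding machinery were mostly above 100: 45 of 73 measured on 10 lists, with 14 below. Among the HSP90 co-chaperones 10 of 16 were above and 3 below, and 6 were above without replicate 3. Stip1, which links HSP70 to HSP90, had 3 equal values of 8.44, as did the activator of the HSP90 ATPase Ahsa1 at 9.64. Cdc37, which brings kinases to HSP90, was neither at 7.91, 7.28 and 7.35, while its relative Cdc37l1 was above at 7.66 in each sample. The 3 below were Fkbp5, at 6.31, 5.73 and 5.97, and Tomm34 and Unc45a, with 3 equal values of 6.62 and 6.52. Chordc1 and Ahsa2, both HSP90 partners, were lowest in replicate 3, at 8.08, 8.29 and 7.11 (neither) and at 8.89, 8.95 and 8.06 (above). They were the only 2 so of the 13 on this list with a mean of 100 or more (15.4%), beside 24.9% of such genes. The median difference between replicate 3 and the mean of the others was 0 over these 13.

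Of 12 HSP70 co-chaperones 6 were above and 4 below, and 3 were above without replicate 1. The exchange factor Bag1 was above, at 10.71, 10.55 and 10.53, and so was St13 (Hip), which stabilises the ADP form of HSP70, at 9.85, 9.85 and 9.14. Bag5 was above at 8.42, 8.41 and 8.53. The 4 below were Bag2, Bag4, Hspbp1 and the ER exchange factor Hyou1, each with 3 equal values. Of 3 J proteins under other names, Sec63 of the ER and Gak (auxilin of most cells) were above and Hscb was neither.

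The cytosolic chaperonin TRiC folds actin and tubulin, and prefoldin delivers them to it. Of 9 TRiC genes 7 were above. Cct6b, a testis form, was below and Cct3 was neither, at 7.89, 7.21 and 6.54. Of 6 prefoldin genes 5 were above and Pfdn4 was neither. Without replicate 3 the genes above were 4 for TRiC and 3 for prefoldin. In the ER, 7 of 9 folding genes were above, among them Calr and Canx with 3 equal values of 9.64 and 11.15 and Pdia3 at 10.97, 10.99 and 10.88. Pdia4 was neither, at 8.09, 8.12 and 6.97, and Creld2 was neither.

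Of 7 regulators of the unfolded protein response, Atf6, Atf4 and Ddit3 were above and Ern1 and Ppp1r15a below. Eif2ak3 was neither. Xbp1 was neither, at 7.19, 6.72 and 5.78, with replicate 3 lowest. The mitochondrial proteases Lonp1 and Clpp were above, Clpb was below and Clpx was neither. Among further heat shock families the mitochondrial HSP90 Trap1 and the small heat shock protein Cryab were above (1 of them without replicate 2), Cryaa, the lens crystallin, was below and Serpinh1, the collagen chaperone, was neither. Hsbp1, which binds heat shock factors, was above, and the factors Hsf4 and Hsf5 were below. Over these 10 lists, 14 of 57 genes with a mean of 100 or more were lowest in replicate 3 and the median difference was 0, beside 18 of 44 and -0.15 for the members.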

How the data were processed

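After 1 round of amplification, RNA was hybridized to Affymetrix Mouse Gene 1.0 ST arrays. The authors deposited log2 signals per probeset, which were used as given. Their paper names RMA in GeneSpring and the submitters' processing notes name Affymetrix Expression Console. Which arrays were normalized together is not given in the sources used here. Medians were 5.70, 5.70 and 5.66 in replicates 1, 2 and 3. The array annotation gave 21789 probesets 1 gene, 1621 several and 12147 none, the latter kept in the fit and not named except where stated, and 19919 of 19938 symbols matched RefSeq. Probesets were fitted with limma 3.58.1 in R 4.3.3 (intercept only, mean-variance trend, residual degrees of freedom 2, prior 0.297). The fit was tested on simulated data without equal values, so that test does not cover genes with 3 equal values. The number of arrays limits the precision. Tables were made with Python 3.11.15, pandas 2.3.3 and numpy 2.4.6. Promoter windows are from RefSeq.

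Members, lists and tests were chosen with earlier results of these data known. Values are given for every Hsp gene, Bag3, Hsf2, every DNAJ gene above 100 and every member with a range of 0.5 or more, and, of other lists, for some of the genes that the rule allows (up to 4 per list in the order written, and every gene where 5 or fewer make a count), the rest being named or counted. Chordc1, Ahsa2, St13, Btg2 and Myc were chosen after their values were seen. The comparison of replicate 3 with the others was also chosen after values were seen. Alternatives were a limit of 50 or 200, no test, quantile normalization, median shift, no trend, a spread for equal values, adjustment over genes, mean probesets and leaving out each sample.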

Additional observations from a re-analysis of the deposited data

How the results depend on the processing

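The counts depended mainly on the limit and on the number of samples. With a limit of 50, 57 members were above and 11 below (20 and 2 Hsp genes, 35 and 9 DNAJ genes), and with a limit of 200, 16 were above and 38 below (8 and 12 Hsp genes, 8 and 24 DNAJ genes). Of all genes, 51.3% were above and 40.5% below at a limit of 50, and 9.37% and 80.6% at a limit of 200. The other folding genes below were 5 and 25 at these limits. With no test, but 100 or more in each sample, 42 members and 26 DNAJ genes were above. Leaving out 1 sample gave 14 to 25 members above and 19 to 22 below, 7 to 10 Hsp genes above and 5 to 6 below, 6 to 14 DNAJ genes above and 13 to 15 below, and 34 to 35 other folding genes above and 13 to 16 below. With 1 sample left out, 16.7% to 17.1% of all genes were above and 62.2% to 62.6% below. Members highest in replicate 3 numbered 14 of 72, beside 3039 of 19938 genes. Such members numbered 37 after quantile normalization and 39 after the median shift, for which the count over all genes is not given. The column of replicate 3 has the lower median, so either scaling lifts it and gives genes with 3 equal values a highest sample.

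Calls turned from below to above at a limit of 50 in 9 members, given with their mean minus the limit on the log2 scale: Dnajb2 (0.1087), Hsf2 (0.6239), Dnajb12 (0.8322), Hspb3 (0.0837), Dnajb5 (0.9885), Dnajc25 (0.9615), Hspb7 (0.0945), Dnajc16 (0.5166) and Hspb6 (0.8456). At a limit of 200, 6 turned from above to below: Dnajc22 (-0.7977), Hspa13 (-0.2425), Dnajc5 (-0.5916), Dnajb4 (-0.3555), Dnajc2 (-0.0966) and Bag3 (-0.4037). These are moves of the limit, not of the signals.

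Quantile normalization and the median shift each gave 32 members above, beside 23.6% and 23.7% of all genes. Giving equal values the median spread of the others gave 32 above and 18 below, beside 21.1% and 62.2% of all genes. Behind these counts, the scalings each lost the calls of Dnajb5 and Dnajc25, and the spread given to equal values lost 6, Dnajc22, Dnajc5, Dnajb5, Dnajc25, Dnajb12 and Hspb6. No trend, adjustment over genes alone and mean probesets changed no call of a member. The counts lowest in replicate 3 were 18 of 44 members under each scaling and probeset rule, and 9 or 10 of 15 Hsp genes. Over all genes at that level the count was 1525 of 6127 with the values as given. With quantile normalization it was 1309 of 6132, with the median shift 1374 of 6127 and with mean probesets 1550 of 6013. No paired analysis was possible because the samples form 1 group. With 3 samples, a gene that is neither is not shown to lie at the limit.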
